A study of Homo sapiens with 6 samples.

Results

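Human pluripotent stem cells can be held in a naive state, which resembles the cells of the blastocyst before implantation, or in a primed state, which resembles the epiblast after implantation. Conventional human embryonic stem cells are primed. The naive state is marked by transcription factors such as KLF4, KLF5, KLF17 and TFCP2L1 and by the small proteins DPPA3 and DPPA5. Primed cells carry more of the surface proteins CD24 and THY1, the secreted Wnt modulator SFRP2 and the phosphatase DUSP6, and depend on FGF-ERK signalling, which naive culture media block. The set described here holds 10 genes, 6 naive markers and 4 primed markers, out of 60499 genes in the deposited tables. They were chosen by name, with earlier results of these data known, and matched by symbol to Ensembl gene IDs. The gene lists used below were also chosen with those results known.

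Total RNA was sequenced from H1, an established human embryonic stem cell line. The cells grew for 4 days in NutriStem medium on laminin-521 alone (LN-521) or on laminin-521 together with laminin-221 (LN-521+LN-221), with no other treatment named in the labels and the laminin-521 shared by both groups. Laminins are the proteins of the basement membrane to which these cells attach. There were 3 wells in each group, each sequenced as 1 library of 20606450 to 26836686 estimated counts. All cells are of 1 line, and the labels call the wells biological replicates without saying whether they came from separate passages, so the p-values measure the spread between these wells.

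The cells carried the core markers of the undifferentiated state, with mean levels over the 6 libraries of 753.6 transcripts per 1000000 (TPM) for POU5F1, 44.9 TPM for NANOG and 160.5 TPM for SOX2. Of 8 such markers 4 had an edgeR adjusted p under 0.05, 3 lower on LN-521+LN-221 and 1 higher, against 2.53% of all genes tested. POU5F1 fell by 0.36 in log2 (edgeR adjusted p = 0.00366), NANOG by 0.73 (edgeR adjusted p = 1.65e-04) and TDGF1, a Nodal co-receptor, by 0.65 (edgeR adjusted p = 8.23e-06), while the RNA-binding protein LIN28A rose by 0.23 (edgeR adjusted p = 0.00737). The call of POU5F1 was lost without LN-521+LN-221 replicate 2 (edgeR adjusted p = 0.0508). That of LIN28A was lost without LN-521 replicate 3 (0.0765) and without LN-521+LN-221 replicate 2 (0.112) or 3 (0.0568), each an edgeR adjusted p. With limma on log2(TPM + 1) TDGF1 passed (limma adjusted p = 0.0149), and POU5F1 (0.0730), NANOG (0.0828) and LIN28A (0.332) did not. Markers of other cell types that the wells could hold differed in level. Of 6 fibroblast markers, DCN averaged 0.103 TPM, COL3A1 0.00333 TPM and PDGFRB 2.14 TPM, and LUM had no count in any library. COL1A1 stood at 40.0 and COL1A2 at 44.7 TPM, near the level of THY1. Over both coatings 6 mesoderm markers summed to between 1.99 and 2.65 TPM. The 6 primordial germ cell markers summed to between 1.69 and 2.53 TPM. The 6 trophoblast markers summed to between 13.1 and 16.6 TPM over both coatings, most of it KRT7 at 12.4 TPM. Of 6 neuroectoderm markers, PAX6 averaged 0.190 TPM and SOX1 0.0533 TPM. The summed neuroectoderm markers ranged from 4.63 to 5.90 TPM on LN-521 and from 6.36 to 7.57 TPM on LN-521+LN-221, and the summed endoderm markers from 2.70 to 5.49 TPM and from 5.78 to 6.77 TPM. Only MAP2 of the first list and HHEX of the second averaged 1 TPM or more. In the endoderm list CXCR4 had means of 0.970 TPM on LN-521 against 0.830 TPM on LN-521+LN-221, and CER1 0.173 against 0.0700 TPM. MAP2, the main part of the neuroectoderm sum, overlapped in CPM, at 26.0, 21.5 and 27.3 on LN-521 against 25.9, 27.7 and 28.0 on LN-521+LN-221 (0.13 in log2, edgeR adjusted p = 0.566). HHEX itself rose from 5.08 ± 1.81 to 9.81 ± 1.21 CPM (SD, n = 3 each, 0.96 in log2, edgeR adjusted p = 0.0238). HHEX did not pass without LN-521 replicate 2 or 3, or without LN-521+LN-221 replicate 2 or 3, with edgeR adjusted p-values between 0.0589 and 0.141, nor with the replicate block (edgeR adjusted p = 0.0742) or limma on log2(TPM + 1) (limma adjusted p = 0.170). The part of these markers in the results below was not tested, and in bulk RNA fewer cells that express a gene cannot be told apart from less of its RNA in each cell.

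The promoters of 3 members are shown first, since DUSP6 and SFRP2 carry the coating difference described below and DPPA3 had the largest fold difference among the naive markers. Each window runs from 250 bases before to 50 bases after the RefSeq start site on build GRCh38.p14. The members' windows were found for 9 of the 10 genes. Capitals mark matches, on either strand, to an octamer (ATTTGCAT, bound by POU factors such as POU5F1), an ETS core (CCGGAA, bound by ETS factors such as ETV4 and ETV5), a GC box (GGGCGG, bound by SP and KLF factors), a TATA box (TATAAA) or a CCAAT box (CCAAT). No match overlapped another in these windows. The DUSP6 window lies on the minus strand at chr12:89352452-89352751, the SFRP2 window on the minus strand at chr4:153789034-153789333 and the DPPA3 window on the plus strand at chr12:7711183-7711482.
DUSP6: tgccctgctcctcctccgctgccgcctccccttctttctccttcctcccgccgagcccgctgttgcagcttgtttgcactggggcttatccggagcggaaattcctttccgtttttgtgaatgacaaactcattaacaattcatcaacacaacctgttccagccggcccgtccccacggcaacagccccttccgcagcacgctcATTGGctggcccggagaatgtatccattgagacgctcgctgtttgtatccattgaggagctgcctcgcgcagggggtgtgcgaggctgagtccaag
SFRP2: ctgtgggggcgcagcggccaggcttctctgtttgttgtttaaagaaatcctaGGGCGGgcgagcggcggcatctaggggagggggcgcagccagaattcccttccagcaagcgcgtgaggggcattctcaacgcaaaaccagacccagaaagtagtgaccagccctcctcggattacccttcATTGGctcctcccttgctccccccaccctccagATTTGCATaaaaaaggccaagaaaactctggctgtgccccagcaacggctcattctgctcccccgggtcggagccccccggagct
DPPA3: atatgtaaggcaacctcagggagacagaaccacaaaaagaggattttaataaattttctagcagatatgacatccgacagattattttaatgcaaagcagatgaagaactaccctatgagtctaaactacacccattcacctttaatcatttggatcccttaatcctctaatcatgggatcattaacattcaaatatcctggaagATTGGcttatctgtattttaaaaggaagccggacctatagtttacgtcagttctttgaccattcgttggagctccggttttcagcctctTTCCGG

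The SFRP2 window holds an octamer, which begins 35 bases before the start site, with a CCAAT box beginning at 68 and a GC box at 198 bases before it. An octamer occurs in 1.77% of all 35116 windows of 300 bases in the same table. The DUSP6 window holds a CCAAT box at 46 bases before the start site, a motif found in 34.6% of all windows, and no ETS core of the spelling searched, which 17.2% of all windows hold. The DPPA3 window holds a CCAAT box at 45 bases before the start and an ETS core at 45 bases after it. Elsewhere in the set GC boxes, found in 45.0% of all windows, number 5 in the TFCP2L1 window and 4 each in those of KLF4 and KLF17. A TATA box, found in 11.5% of all windows, occurs in 1 of the members' 12 windows, that of the upstream start of KLF5. These matches describe the letters of the windows and say nothing of binding.

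Levels were compared between genes in TPM, which corrects for transcript length. The primed markers stood above the naive markers in all 6 libraries, with no overlap: the lowest primed value, of DUSP6, was 6.57 TPM and the highest naive value, of DPPA3, was 3.81 TPM. The 6 naive markers together summed to between 7.07 and 9.68 TPM per library, and the 4 primed markers to between 1424 and 1636 TPM. CD24, a small heavily glycosylated surface protein, made up 93.4% to 96.2% of the primed sum.

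The order of the means was CD24 at 1454 ± 92.2 TPM, THY1 at 45.9 ± 8.97, SFRP2 at 20.7 ± 2.30, DUSP6 at 7.53 ± 1.26, DPPA3 at 2.84 ± 0.800, KLF4 at 2.47 ± 0.309, KLF5 at 1.51 ± 0.238, DPPA5 at 0.955 ± 0.143, TFCP2L1 at 0.583 ± 0.146 and KLF17 at 0.0217 ± 0.0160 TPM (SD over 6 libraries). Neighbours in this order were apart in every library except for a pair of places. DPPA3 was above KLF4 in 4 of 6 libraries and DPPA5 above TFCP2L1 in 5 of 6, and their ranges overlapped. Among the 17608 genes with enough counts to be tested, the mean TPM of CD24 was above that of 99.6% of genes and that of THY1 above 90.4%, against 35.6% for DPPA3, 33.4% for KLF4 and 12.8% for TFCP2L1.

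**Figure D1:**
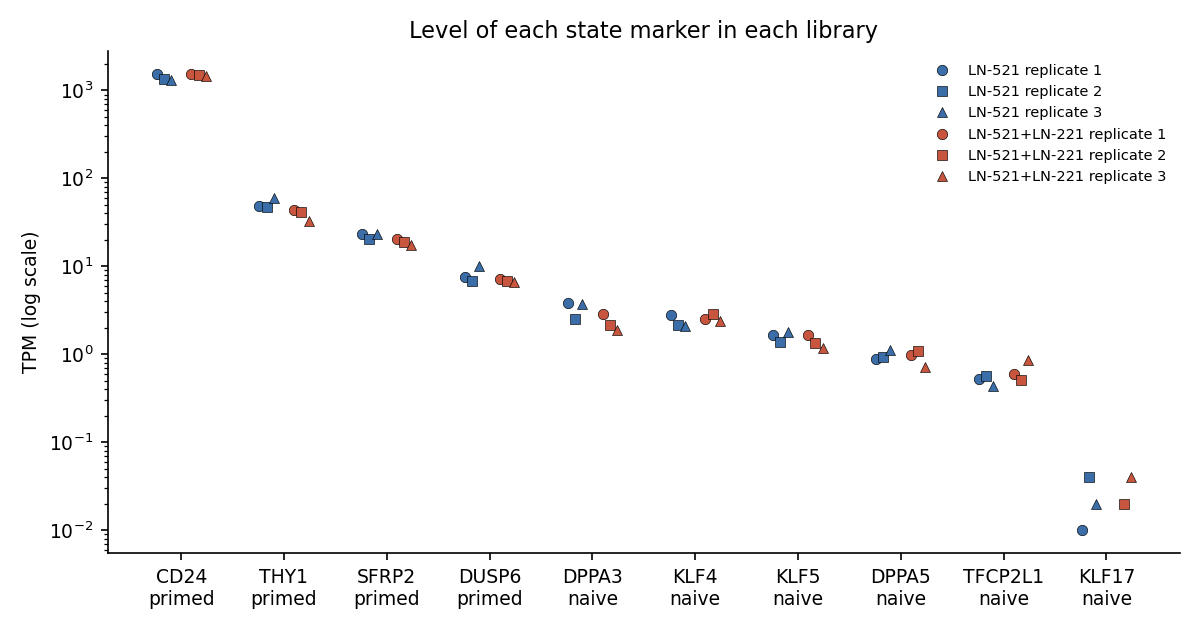
TPM of each marker in each library on a log scale, with the coating shown by colour and the replicate by symbol. The primed markers run from 6.57 TPM upward and the naive markers from 3.81 TPM downward; KLF17, at 0 in LN-521+LN-221 replicate 1, has 5 points.

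The coatings were compared in counts per 1000000 (CPM), the rounded counts divided by the scaled library size, with edgeR's quasi-likelihood test over all genes. A gene is said to have passed when its p-value, adjusted by the Benjamini-Hochberg method, was under 0.05. Of the 10 markers 9 had enough counts to be tested. The 3 that passed were THY1, SFRP2 and DUSP6, all primed markers and all lower on LN-521+LN-221. CD24, the remaining primed marker, and the 5 tested naive markers did not pass. Across all genes tested, 2.53% passed, 1.14% lower and 1.4% higher. Fold changes are given as LN-521+LN-221 over LN-521. The members' median was -0.21 in log2, against a median of -0.0011 over all genes. The CPM of the coatings did not overlap for 6 of the 9 tested markers, including all 4 primed ones, against 19.9% of all genes tested.

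**Figure D2:**
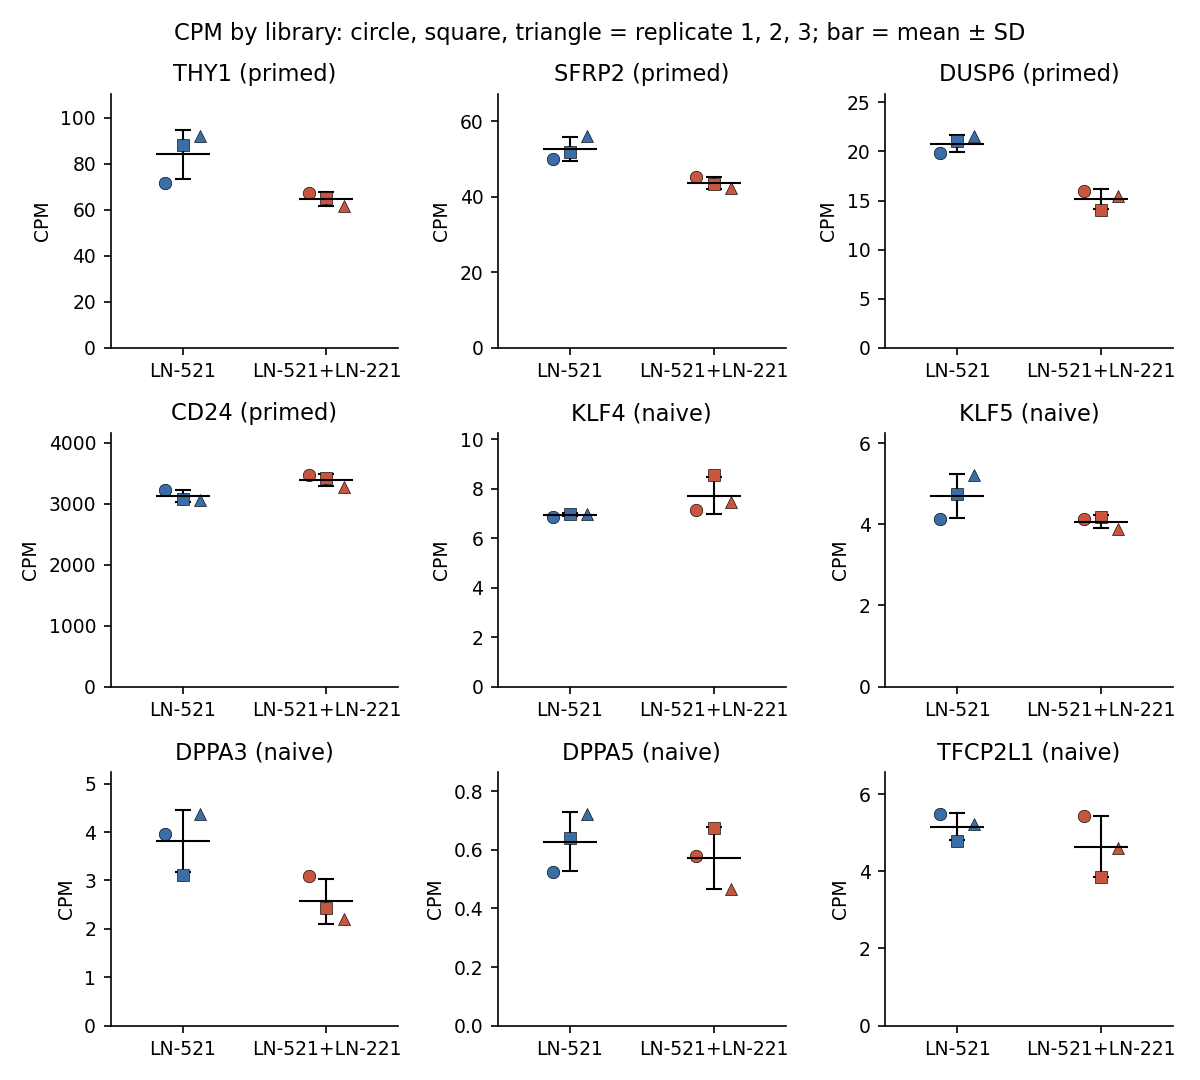
CPM of the 9 tested markers in each library, with the coating on the horizontal axis, symbols for replicates and bars for the mean ± SD of 3 wells. The 3 wells on LN-521+LN-221 lie below all 3 on LN-521 for THY1, SFRP2, DUSP6 and DPPA3 and above them for CD24 and KLF4.

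DUSP6 (ENSG00000139318, protein coding, chr12:89347232-89353271, minus strand) encodes a phosphatase that removes phosphate from ERK and is itself induced by ERK signalling. Its expression was 19.8, 21.0 and 21.6 CPM in LN-521 replicates 1 to 3 and 16.0, 14.0 and 15.4 CPM on LN-521+LN-221. The groups lie well apart, with the lowest LN-521 well above the highest of the other coating. DUSP6 fell by 27.3%, from 20.8 ± 0.904 to 15.1 ± 1.03 CPM (SD, n = 3 each). In log2 this was -0.46 ± 0.09 (SE, 95% interval -0.65 to -0.27, edgeR adjusted p = 0.00703). The call was lost without LN-521 replicate 3 (edgeR adjusted p = 0.0600) and without LN-521+LN-221 replicate 2 (edgeR adjusted p = 0.0876).

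THY1 (ENSG00000154096, protein coding, chr11:119417378-119424985, minus strand) encodes the surface glycoprotein CD90, also carried by fibroblasts and neurons. It stood at 71.8, 88.3 and 92.2 CPM on LN-521 and at 67.3, 65.2 and 61.5 CPM on LN-521+LN-221. LN-521 replicate 1 lies closer to the other coating than to its own 2 neighbours. THY1 fell by 23.2%, from 84.1 ± 10.8 to 64.6 ± 2.97 CPM (SD, n = 3 each), or -0.38 ± 0.08 in log2 (SE, 95% interval -0.55 to -0.21, edgeR adjusted p = 0.0146). It was -0.48 when LN-521 replicate 1 was left out (edgeR adjusted p = 9.28e-06), and the call was lost without LN-521 replicate 2 (0.0903) or 3 (0.130) and without LN-521+LN-221 replicate 2 (0.0984) or 3 (0.114), each an edgeR adjusted p.

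SFRP2 (ENSG00000145423, protein coding, chr4:153780592-153789120, minus strand) encodes a secreted protein with a Frizzled-like domain that binds Wnt ligands. Its values were 49.9, 52.0 and 56.1 CPM on LN-521 and 45.3, 43.2 and 42.2 CPM on LN-521+LN-221, again without overlap. SFRP2 fell by 17.3%, from 52.7 ± 3.15 to 43.6 ± 1.56 CPM (SD, n = 3 each), or -0.27 ± 0.07 in log2 (SE, 95% interval -0.42 to -0.13, edgeR adjusted p = 0.0382). This was the smallest of the 3 changes and it kept its call in 2 of 6 tests with 1 library removed, those without LN-521 replicate 1 or 2. The others, without LN-521 replicate 3 or any 1 library of LN-521+LN-221, gave an edgeR adjusted p between 0.0992 and 0.241.

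CD24 (ENSG00000272398, protein coding, chr6:106969831-106975627, minus strand) differed in sign from the other primed markers. It stood at 3232, 3079 and 3053 CPM on LN-521 and at 3472, 3421 and 3281 CPM on LN-521+LN-221. The groups did not overlap, at 3121 ± 96.6 and 3391 ± 98.9 CPM (SD, n = 3 each). The difference of 0.12 ± 0.05 in log2 (SE, 95% interval 0.02 to 0.22) did not pass the adjustment over all genes (edgeR adjusted p = 0.239). It passed without LN-521 replicate 1 (0.15 in log2, edgeR adjusted p = 0.0320). CD24 counts were not whole in any of the 6 libraries, which happens where reads are divided between loci of like sequence. Its 4 named pseudogenes together received 5.02 to 12.04 counts per library, beside 72097 to 81906 for CD24 itself. With these counts added, a setting chosen after seeing the data, the log2 fold change stayed at 0.12 (edgeR adjusted p = 0.239).

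**Figure D3:**
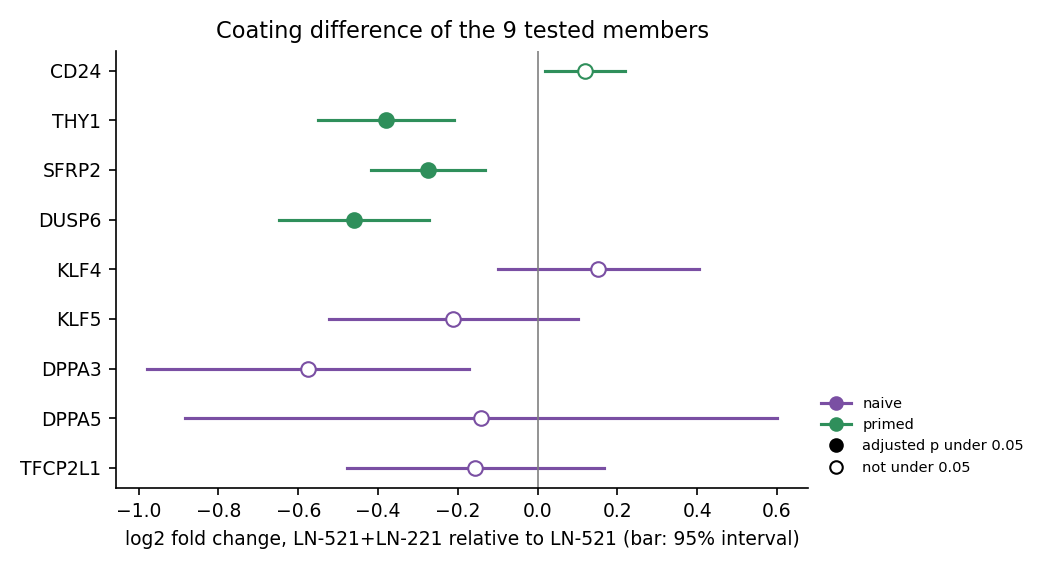
Log2 fold change of the 9 tested markers with its 95% interval, filled where the edgeR adjusted p was under 0.05. THY1, SFRP2 and DUSP6 are filled and lie below 0, while the intervals of KLF4, KLF5, DPPA5 and TFCP2L1 span 0.

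None of the 5 tested naive markers passed in the edgeR test reported or in DESeq2, or in limma where it tested them. Only 1 of them, DPPA3, had an unadjusted edgeR p under 0.05, as did 14.5% of all genes tested. DPPA3 (ENSG00000187569, protein coding, chr12:7711454-7717559, plus strand), also called STELLA, protects maternal methylation marks in the early embryo. It stood at 3.96, 3.12 and 4.38 CPM on LN-521 and at 3.08, 2.42 and 2.20 CPM on LN-521+LN-221. The groups nearly touch, at 3.12 and 3.08 CPM. The log2 fold change was -0.58 ± 0.19 (SE, 95% interval -0.98 to -0.17, edgeR adjusted p = 0.147), the largest of the set in size.

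DPPA3 shares sequence with pseudogenes, among which its reads can be divided. Its counts were not whole in 6 of 6 libraries, and its 11 named pseudogenes together received 3.60, 2.22 and 7.31 counts on LN-521 and 11.2, 22.2 and 8.22 counts on LN-521+LN-221, beside 51.8 to 108.7 for DPPA3 itself. With these counts added to the gene, a setting chosen after seeing the data, the log2 fold change was -0.33 (edgeR adjusted p = 0.454). With a correction for transcript GC content it was -0.62 and passed (edgeR adjusted p = 0.0475). It also passed with this correction and the replicate block (edgeR adjusted p = 0.0411).

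KLF4 (ENSG00000136826, protein coding, chr9:107484852-107490482, minus strand) is a zinc finger factor of the reprogramming cocktail. Its values were 6.88, 6.99 and 6.98 CPM on LN-521 and 7.13, 8.57 and 7.48 CPM on LN-521+LN-221. The LN-521 wells were nearly equal and all lay below the others, and the log2 fold change was 0.15 ± 0.12 (SE, 95% interval -0.10 to 0.40, edgeR adjusted p = 0.617). KLF5 (ENSG00000102554, protein coding, chr13:73054976-73077542, plus strand), a close relative of KLF4, stood at 4.14, 4.74 and 5.22 CPM on LN-521 and at 4.14, 4.17 and 3.89 CPM on LN-521+LN-221. Its groups overlapped, with a log2 fold change of -0.21 ± 0.15 (SE, 95% interval -0.52 to 0.10, edgeR adjusted p = 0.565).

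TFCP2L1 (ENSG00000115112, protein coding, chr2:121216587-121285207, minus strand) is a grainyhead-like factor that acts downstream of LIF-STAT3 in mouse naive cells. It had 126, 127 and 130 counts on LN-521 against 113, 86 and 109 on LN-521+LN-221. In CPM the groups overlapped, and the log2 fold change was -0.16 ± 0.15 (SE, 95% interval -0.48 to 0.17, edgeR adjusted p = 0.706). DPPA5 (ENSG00000203909, protein coding, chr6:73353062-73354295, minus strand), an RNA-binding protein also named ESG1, had 12, 17 and 18 counts on LN-521 against 12, 15 and 11 on LN-521+LN-221. At this depth the interval of its log2 fold change was wide, -0.88 to 0.60 around -0.14 (edgeR adjusted p = 0.902). TFCP2L1 had more counts than DPPA5 but a lower mean TPM. In TPM the sign of its difference turned, from a mean of 0.510 ± 0.0656 to 0.657 ± 0.182 (SD, n = 3 each).

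KLF17 (ENSG00000171872, protein coding, chr1:44118850-44135140, plus strand), a factor largely restricted to naive cells among human stem cell states, was near the detection limit. It had 1, 4 and 2 counts on LN-521 against 0, 2 and 4 on LN-521+LN-221, and did not have enough counts to be tested. A count of 0 in LN-521+LN-221 replicate 1 allows up to 3 counts, or 0.145 CPM, by counting error alone. The exact two-sided permutation test of its CPM gave p = 1, where 3 wells against 3 can reach 0.1 at the smallest.

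The decreases passed in edgeR on counts and not in limma on the authors' TPM. These tests also differ in method, gene filter and scaling, and the part of each in the lost calls was not tested. With limma on log2(TPM + 1), no member tested passed: DUSP6 differed by -0.21 (limma adjusted p = 0.793), THY1 by -0.40 (limma adjusted p = 0.370) and SFRP2 by -0.22 (limma adjusted p = 0.657). This limma test passed 62 genes in all, against 446 in edgeR. Over the genes that edgeR also tested, its median log2 fold change was 0.0351, against -0.0011 in edgeR. THY1 remained without overlap in TPM, at 48.7, 47.8 and 60.2 on LN-521 against 44.2, 41.2 and 33.2 on LN-521+LN-221. SFRP2 overlapped, at 23.3, 20.5 and 23.3 TPM on LN-521 against 20.7, 18.8 and 17.7 TPM on LN-521+LN-221. DUSP6 did so too, at 7.67, 6.87 and 9.98 TPM on LN-521 and 7.24, 6.83 and 6.57 TPM on LN-521+LN-221.

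TPM differs from CPM in 2 measurable ways here. RNAs of the 7SL family took between 30.1% and 37.3% of the TPM per library, most in LN-521 replicate 2, and whatever they take lowers the TPM of every other gene. The length by which counts were divided also varied between libraries for genes with several transcripts. This implied length was taken as counts over TPM, scaled by 735 genes with 1 annotated transcript and given relative to each gene's mean over the libraries. It stayed at 1.00 in all 6 libraries for SFRP2 and between 0.997 and 1.004 for DPPA3, which have 1 transcript each. For DUSP6, with 5 annotated transcripts of 567 to 4400 bases, it was 1.17, 1.17 and 0.871 on LN-521 against 0.976, 0.865 and 0.951 on LN-521+LN-221. For TFCP2L1, with transcripts of 603 and 9292 bases, it ran from 0.589 to 1.30. Which transcripts were present was not tested.

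**Figure D4:**
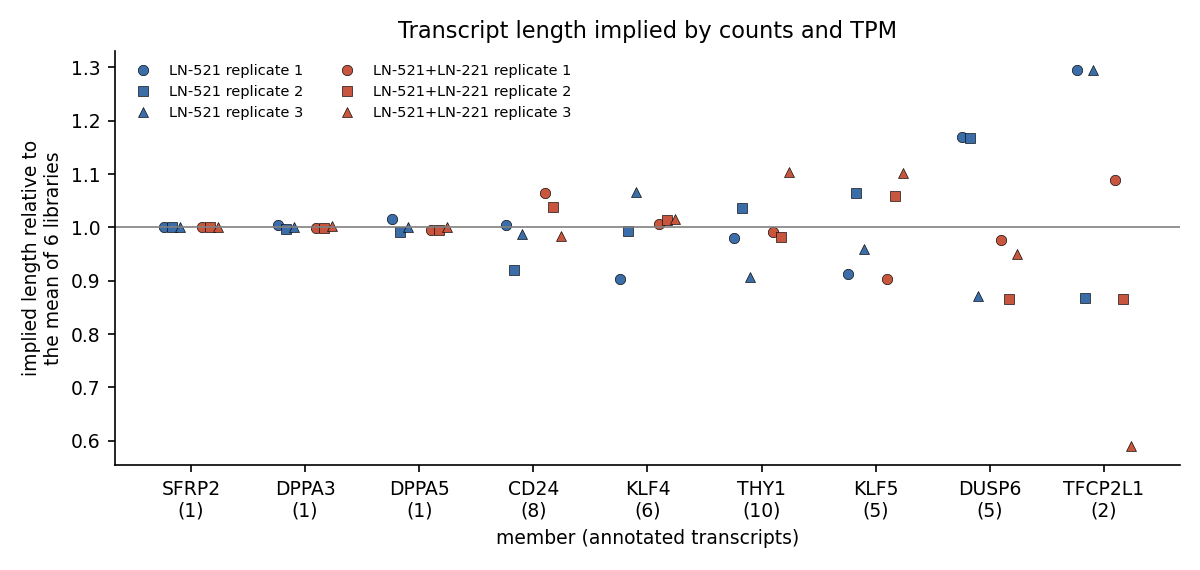
Transcript length implied by the authors' counts and TPM, relative to the mean of the 6 libraries, for the 9 tested members, with the number of annotated transcripts in brackets. SFRP2, DPPA3 and DPPA5, with 1 transcript each, lie at or near 1, and DUSP6 and TFCP2L1 spread from 0.865 to 1.17 and from 0.589 to 1.30.

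DUSP6 is one of a group of genes that ERK signalling induces and that in part restrain it. Of 15 such genes, all tested, 6 passed lower and 2 higher in edgeR, against 1.14% and 1.4% of all genes tested. The group's median log2 fold change was -0.31, against -0.0011 over all genes. The 6 that passed lower were DUSP6, the ETS factors ETV4 and ETV5, the signalling inhibitors SPRY4 and SPRED2, and PHLDA1. ETV4 fell from 20.3 ± 1.80 to 13.2 ± 0.583 CPM (SD, n = 3 each, log2 fold change -0.62, edgeR adjusted p = 9.19e-04) and SPRY4 from 16.4 ± 1.00 to 12.1 ± 0.746 CPM (-0.45, edgeR adjusted p = 0.0139). ETV5 changed by -0.44 (edgeR adjusted p = 0.0322), SPRED2 by -0.42 (edgeR adjusted p = 0.0420) and PHLDA1 by -0.32 (edgeR adjusted p = 0.0102). DESeq2 passed 6 of the group, without ETV5 (DESeq2 adjusted p = 0.0526) and SPRED2 (DESeq2 adjusted p = 0.0982). ETV5 passed in 1 of 6 tests with a library removed, that without LN-521 replicate 1. SPRED2 passed in those without LN-521 replicate 1 or 2, and SPRY4 and PHLDA1 in these and in that without LN-521+LN-221 replicate 1.

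The 2 genes of this group that rose were DUSP4, a nuclear phosphatase related to DUSP6, and CCND1, which encodes cyclin D1. DUSP4 stood at 2.88, 4.25 and 3.33 CPM on LN-521 and at 8.57, 8.84 and 8.87 CPM on LN-521+LN-221. The difference was 1.32 ± 0.15 in log2 (SE, edgeR adjusted p = 3.84e-05). Its groups lie far apart, in the opposite direction to DUSP6. CCND1 rose from 69.5 ± 7.50 to 110.3 ± 5.90 CPM (SD, n = 3 each, 0.67 in log2, edgeR adjusted p = 3.68e-05). EGR1, an immediate early gene, was at 27.9 ± 0.602 and 26.7 ± 1.98 CPM (SD, n = 3 each, edgeR adjusted p = 0.771). Without LN-521 replicate 3 or LN-521+LN-221 replicate 2, the group's 8 calls were 3, and without LN-521+LN-221 replicate 3 they were 4. With limma on log2(TPM + 1) there was 1.

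SFRP2 differed in direction from 2 other genes of its family. Of the 5 secreted Frizzled-related proteins, 4 were tested and 3 passed, against 2.53% of all genes tested. SFRP1, at 365.7 ± 53.8 against 577.9 ± 12.8 CPM (SD, n = 3 each), rose by 0.66 ± 0.09 in log2 (SE, edgeR adjusted p = 0.00171). SFRP1 did not pass without LN-521 replicate 2 (edgeR adjusted p = 0.0723) or with limma on log2(TPM + 1) (limma adjusted p = 0.0571). FRZB stood at 18.0, 14.5 and 11.8 CPM on LN-521 and at 34.9, 38.6 and 38.7 CPM on LN-521+LN-221, so that it rose by 1.35 ± 0.12 in log2 (SE, edgeR adjusted p = 8.23e-06). SFRP5 was at 6.55 ± 0.656 and 7.38 ± 0.606 CPM (SD, n = 3 each, edgeR adjusted p = 0.597), and SFRP4 had at most 2 counts in a library. In TPM, SFRP1 averaged 89.4, SFRP2 20.7 and FRZB 7.04 over the 6 libraries.

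The other families of the naive markers showed fewer calls. Of 18 KLF genes, 17 matched an ID and 13 were tested, and KLF6 was the 1 that passed, rising from 30.5 ± 2.77 to 39.1 ± 1.94 CPM (SD, n = 3 each, log2 fold change 0.36, edgeR adjusted p = 0.0184). Of all genes tested 2.53% passed. The KLF family's median log2 fold change was 0.01. KLF6 lost its call without LN-521+LN-221 replicate 2 (edgeR adjusted p = 0.0997) or 3 (edgeR adjusted p = 0.147). KLF2, a naive factor in mouse, had 0 to 9 counts per library.

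All 4 DPPA genes were tested and had negative log2 fold changes, with a median of -0.20, but none passed in the edgeR test reported. In that test 2 had an unadjusted p under 0.05, DPPA2 and DPPA3, against 14.5% of all genes. DPPA4, a chromatin-bound partner of DPPA2, averaged 499.7 TPM and had a log2 fold change of -0.08 (edgeR adjusted p = 0.493), and DPPA2 averaged 15.9 TPM and had one of -0.26 (edgeR adjusted p = 0.171). DESeq2 passed none of the 4, and limma none of those it tested. With the GC correction 2 of the 4 passed, and 938 of the 17473 genes tested there. Of the 6 grainyhead-related genes, TFCP2L1 among them, none passed in edgeR or DESeq2, or in limma where tested, and 2 had an unadjusted edgeR p under 0.05, also against 14.5% of all genes. The most abundant, UBP1 and TFCP2, averaged 26.0 and 15.0 TPM and had edgeR adjusted p-values of 0.612 and 0.316.

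Further genes that separate the states were read from 2 lists of 20. Against 2.53% of all genes tested, 1 of the 12 tested genes of the naive list passed. This was TFAP2C, a transcription factor needed for the naive state and also expressed in trophoblast and germ cells, at 31.2, 31.1 and 30.5 CPM on LN-521 and 36.6, 42.1 and 41.0 CPM on LN-521+LN-221, a rise of 0.37 ± 0.07 in log2 (SE, edgeR adjusted p = 0.00940). Its call was lost without LN-521 replicate 3 (edgeR adjusted p = 0.0738) and without LN-521+LN-221 replicate 2 (0.107) or 3 (0.0766). The list's median was -0.05. Levels in the list differed widely. ZFP42, a zinc finger factor of both states, averaged 68.7 TPM, PRDM14, a repressor of differentiation, 29.6 TPM, DPPA2 15.9 TPM, TFAP2C 10.8 TPM and the alkaline phosphatase ALPG 7.65 TPM, all above the mean of the primed marker DUSP6. At the other end ARGFX had no count in any library, OLAH and HORMAD1 at most 1, and KHDC1L at most 3. SUSD2, a surface protein used to sort naive cells, averaged 1.28 TPM and differed by -0.37 in log2 (edgeR adjusted p = 0.208), and DNMT3L, a regulator of DNA methylation, averaged 0.757 TPM and differed by 0.95 ± 0.33 in log2 (SE, edgeR adjusted p = 0.169).

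Of the primed list 19 were tested, with 1 passing higher and 2 lower, against 1.4% and 1.14% of all genes tested. The primed list's median was 0.02. OTX2, a homeobox factor of the primed epiblast and the anterior neural plate, rose from 95.3 ± 7.47 to 156.8 ± 6.51 CPM (SD, n = 3 each, log2 fold change 0.72, edgeR adjusted p = 4.38e-06). NLGN4X, a neuronal adhesion protein, changed by -0.30 (edgeR adjusted p = 0.00352), and PTPRZ1, a receptor phosphatase, by -0.26 (edgeR adjusted p = 0.0370). The most abundant of the list did not pass: DNMT3B averaged 404.8 TPM and differed by 0.05 in log2 (edgeR adjusted p = 0.733), and PODXL averaged 359.1 TPM and differed by 0.02 (edgeR adjusted p = 0.866). FGF5, the growth factor of the primed mouse epiblast, averaged 0.0283 TPM and was not tested. Without LN-521 replicate 1 the list had 9 calls in place of 3. The call of PTPRZ1 was lost without LN-521 replicate 3 and without each single library of LN-521+LN-221, with edgeR adjusted p-values between 0.0957 and 0.253.

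**Figure D5:**
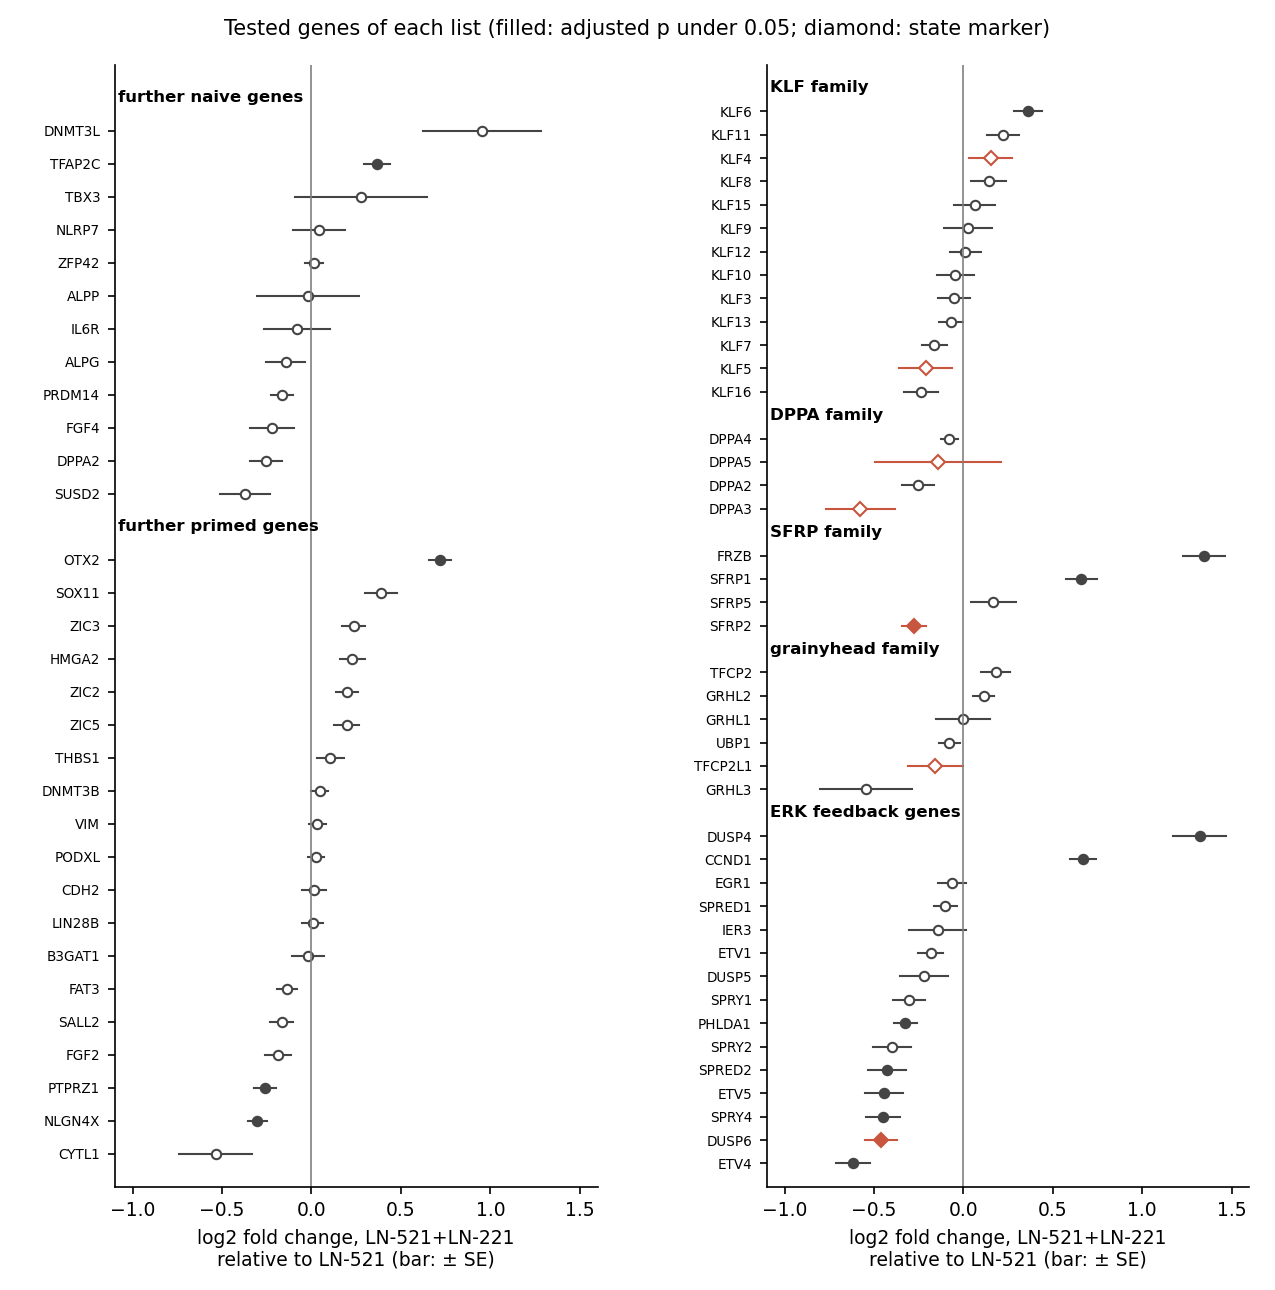
Log2 fold change ± SE of every tested gene of the 7 lists, filled where the edgeR adjusted p was under 0.05, with the state markers as diamonds. In the SFRP family FRZB, SFRP1 and SFRP2 are filled, with SFRP2 alone below 0, and among the ERK feedback genes DUSP4 and CCND1 are the 2 above 0.

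Of the called members, DUSP6 and THY1 were overlapped by other genes on the opposite strand. The strand setting of the counting is not given in the sources used here. The exons of DUSP6 overlap those of AC024909.2, which had 1 to 5 counts per library, and those of THY1 overlap AP003396.5, with 0 or 1 count. USP2-AS1 overlaps THY1 outside its exons and had 6 to 21 counts per library.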

How the data were processed

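Libraries came from a stranded kit for total RNA and were sequenced as paired reads of 150 bases, per the labels' protocols. The submitters' processing notes name cutadapt, STAR (2.5.2b), RSEM (1.2.31) and build hg38. The gene annotation and the strand setting are not given in the sources used here. The authors deposited estimated counts, of which 6.08% to 6.67% per library are not whole, and TPM values for the same genes. The deposited sample sheet lists 1 sequencing batch.

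Estimated counts were rounded, filtered with edgeR's filterByExpr (minimum count 10), scaled by TMM and tested with edgeR's quasi-likelihood test (edgeR 4.0.16, R 4.3.3, robust) over 17608 genes without a replicate block, with Benjamini-Hochberg adjustment over all of them. SE is the log2 fold change over the square root of F. DESeq2 (1.42.0) and limma (3.58.1, with trend, genes at 1 TPM in 3 libraries) served as alternatives. On simulated data edgeR recovered most large changes, and the share of false calls exceeded the threshold, so adjusted p-values just under 0.05 are the less certain ones. Gene positions are from GENCODE 29 (GRCh38) and promoter windows from RefSeq. The members and gene lists were chosen with earlier results of these data known. Named were all members, the genes of each list that passed (up to 8) or else its 2 most abundant, and POU5F1, NANOG and SOX2. Other genes named were chosen after their values were seen.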

Additional observations from a re-analysis of the deposited data

How the results depend on the processing

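Among 30 genes refitted, the 9 tested members included, none changed direction in a setting that tested it. TFCP2L1 was too low for all 3 limma settings, and DPPA5 for the filter of 1 CPM and for limma on the deposited TPM. The 446 genes passing in all were 718 without a filter, 938 with the GC correction, 1095 with the replicate block and the GC correction, 62 and 61 with limma on log2(TPM + 1) and log2(TPM + 0.1), and 89 with limma on TPM rescaled without 7SL, 7SK, ribosomal and mitochondrial RNA, a setting chosen after seeing the data. In these 3 limma settings the 3 members that passed were 0, 0 and 0, the further naive genes 0, 0 and 0, the further primed genes 1, 1 and 1, the KLF family 0, 0 and 0, the SFRP family 1, 1 and 2 and the ERK feedback genes 1, 1 and 2. The further primed genes, 3 in the test reported, were 5 with DESeq2, 6 without a filter, 5 with the replicate block and 9 with the block and the GC correction. The GC correction gave 2 calls in the DPPA family and 2 among the further naive genes, with or without the block.

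With the replicate block alone 646 genes and the same count of 3 members passed. Same-numbered wells correlated at 0.047, -0.022 and 0.009 in their deviations from their group, and the other pairs at -0.06 to 0.057. With 3 wells in each group these values cannot decide whether same-numbered wells were paired. With the block and the GC correction THY1 did not pass (edgeR adjusted p = 0.0522) and CD24 did (0.0172), and 4 members passed in all. SFRP1 (0.154), HHEX (0.169), CCND1 (0.1) and NANOG (0.0653) did not pass there, each an edgeR adjusted p.

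Leaving out each library in turn gave 194 to 1179 genes in all, 0 to 4 members, 0 to 1 further naive genes, 2 to 9 further primed genes, 0 to 1 of the KLF family, 2 to 3 of the SFRP family and 3 to 9 ERK feedback genes. The genes in all were 1179 without LN-521 replicate 1, 201 without LN-521 replicate 3, and 290, 198 and 194 without LN-521+LN-221 replicates 1, 2 and 3. The members were 0 without LN-521 replicate 3 or LN-521+LN-221 replicate 2 and 1 without LN-521+LN-221 replicate 3. The cause was not tested. Depth limited DPPA5 and KLF17 most.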
